A study of Mus musculus with 24 samples.

Results

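Cultured mouse Th1 cells were compared with activated CD8 T cells, using the 6 libraries labelled Th1 and the 6 labelled CD8, which are 12 of the 24 libraries of the series. The members were chosen by the cell type prefix of their columns in the deposited count table, with no measured value used. All 12 are wild type by their labels and were polarized or activated in culture by a supplier's standard protocols. Of the 6 libraries of either type, 1 was from cells given the vehicle DMSO. The others were from cells given an agonist of the kappa opioid receptor (KOR), which was WMS-64, WMS-75, WMS-76, WMS-83 or WMS-200, with 1 library for each. The agonists are described as perhydroquinoxaline derivatives and were given at 0.1 µM for up to 5 days. The Th1 and CD8 libraries of one treatment were taken as a pair, which made 6 pairs. The full compound codes in the titles end in suffixes that differ between the cell types for all agonists but WMS-76, and for some CD8 libraries between title and treatment label. The Th1 and CD8 cells of an agonist pair may therefore have had different compounds of one code series. Each treatment thus occurs once per cell type, and the replicates of a cell type are its 6 libraries under different treatments.

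The columns are also headed by a WT number of unstated meaning, 4 throughout Th1 and 2 throughout CD8. What it marks cannot be told apart from the cell type, and all 6 libraries of a type could derive from 1 animal. The p-values therefore measure the spread between these libraries only. The title of the Th1 library with WMS-83 reads Th17, whereas its source name, cell type and column say Th1, and it was used as Th1. Leaving out that pair gave 3675 called genes in place of 4139. The columns of the CD8 libraries are headed Tc1. Total counts ran from 16933512 to 21946887 in Th1 and from 16842562 to 20937496 in CD8. Across 11320 expressed genes, log2 levels correlated at 0.990 to 0.993 between Th1 libraries, at 0.990 to 0.994 between CD8 libraries and at 0.974 to 0.979 between the cell types.

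CD4 helper and CD8 cytotoxic T cells arise from a common thymic precursor, which keeps one coreceptor under the opposing factors ThPOK (encoded by Zbtb7b) and Runx3. Activated CD8 cells kill target cells with granules that hold perforin and granzymes. Th1 cells help macrophages and other lymphocytes through interferon gamma, CD40 ligand and other cytokines. T-bet (Tbx21) drives interferon gamma production in both, and its relative eomesodermin (Eomes) is best known from CD8 cells.

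The promoters of 5 genes that differed widely are shown because Runx and T-box factors are known regulators of such genes. They were picked after their values were seen. Each is the 250 bases before the RefSeq start on GRCm38.p6, on the strand of the gene, with matches to the Runx letters TGTGGT, the T-box letters AGGTGT and the AP-1 letters TGANTCA (either strand) in capitals. Gzmb lies at chr14:56262335-56262584 (minus), Prf1 at chr10:61297586-61297835 (plus), Klrk1 at chr6:129623865-129624114 (minus), Xcl1 at chr1:164935523-164935772 (minus) and Il21 at chr3:37232637-37232886 (minus). Il21 was higher in Th1 and the other 4 were higher in CD8.
Gzmb: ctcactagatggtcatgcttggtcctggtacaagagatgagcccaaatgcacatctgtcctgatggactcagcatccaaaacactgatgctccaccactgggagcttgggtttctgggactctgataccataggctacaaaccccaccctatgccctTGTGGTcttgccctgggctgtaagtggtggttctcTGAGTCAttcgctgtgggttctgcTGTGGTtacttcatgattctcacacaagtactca
Prf1: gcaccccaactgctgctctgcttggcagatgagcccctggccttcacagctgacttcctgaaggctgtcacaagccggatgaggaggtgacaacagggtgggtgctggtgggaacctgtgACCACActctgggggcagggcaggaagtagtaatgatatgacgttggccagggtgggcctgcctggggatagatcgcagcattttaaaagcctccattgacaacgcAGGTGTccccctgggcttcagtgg
Klrk1: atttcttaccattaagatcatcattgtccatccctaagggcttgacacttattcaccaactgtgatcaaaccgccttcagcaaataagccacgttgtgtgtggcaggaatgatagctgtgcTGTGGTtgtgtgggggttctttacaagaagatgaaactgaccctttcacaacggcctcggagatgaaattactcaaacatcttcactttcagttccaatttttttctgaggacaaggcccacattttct
Xcl1: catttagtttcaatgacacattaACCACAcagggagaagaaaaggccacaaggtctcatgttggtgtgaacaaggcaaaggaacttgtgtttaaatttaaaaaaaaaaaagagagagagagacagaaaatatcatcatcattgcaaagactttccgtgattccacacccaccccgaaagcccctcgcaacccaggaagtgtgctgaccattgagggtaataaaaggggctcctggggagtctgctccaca
Il21: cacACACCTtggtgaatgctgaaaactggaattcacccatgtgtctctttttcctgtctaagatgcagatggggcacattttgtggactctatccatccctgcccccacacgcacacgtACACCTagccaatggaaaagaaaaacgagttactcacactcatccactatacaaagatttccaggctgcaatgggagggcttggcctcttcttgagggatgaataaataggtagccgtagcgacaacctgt
Counted back from the start, Gzmb has Runx matches at -93 and -34 and an AP-1 match at -58. Prf1 has a Runx match at -130 and a T-box match at -24, Klrk1 has a Runx match at -129, and Xcl1 has one at -227. Il21 has T-box matches at -247 and -131 and no Runx match in this window. A match is a run of letters and not a measured binding site. These promoters do not show how common a match is. The Runx letters occurred in 63 of 271 promoters (23.2%) of genes at least 2-fold higher in CD8, as given below.

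Of 14117 genes tested, 4139 differed between Th1 and CD8 at an adjusted p under 0.05, which is 29.3%. CPM, the counts scaled to library size with TMM factors, give the levels, and log2 fold changes are Th1 over CD8 with standard errors, so a negative value is higher in CD8. There were 1916 genes (13.6%) higher in Th1 and 2223 (15.7%) higher in CD8. Counts of list members below are to be read beside these shares, and a count near them is no result about the list. Called genes that differed at least 2-fold numbered 615 (4.36%), with 230 (1.63%) higher in Th1 and 385 (2.73%) higher in CD8. All 6 Th1 libraries lay above all 6 CD8 libraries for 967 genes (6.85%), and the reverse held for 1234 genes (8.74%). The larger differences lay on the CD8 side: at least 4-fold, 82 genes were higher in CD8 and 20 in Th1, and at least 16-fold, 6 and 0. The median log2 fold change over all genes tested was 0.00 (-0.0024), and the median absolute value was 0.15.

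**Figure D1:**
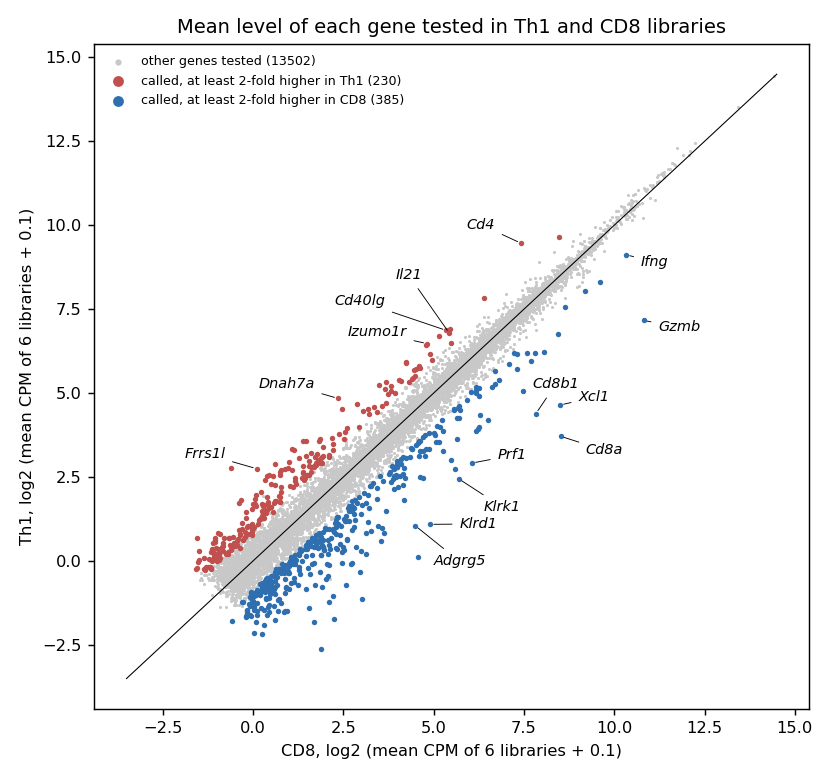
Mean level of each of the 14117 genes tested in the 6 CD8 libraries (horizontal) and the 6 Th1 libraries (vertical), as log2 of CPM plus 0.1. The 230 red genes and 385 blue genes were called and at least 2-fold higher in Th1 or in CD8, and the blue genes with the widest distance from the diagonal include Cd8a, Xcl1 and Gzmb.

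The coreceptors separated the libraries by their labels. Cd8a, the CD8 alpha chain, ran from 11.9 to 13.7 CPM in Th1 (median 13.2) and from 341 to 383 CPM in CD8 (median 368). The groups lay far apart, with a log2 fold change of -4.81 ± 0.05 (adjusted p 1.08e-32). Cd8b1, the beta chain, ran from 18.9 to 23.7 CPM in Th1 (median 20.8) and from 213 to 240 CPM in CD8 (median 232), a log2 fold change of -3.45 ± 0.05 (adjusted p 1.51e-28). Cd4 ran from 680 to 728 CPM in Th1 (median 710) and from 157 to 183 CPM in CD8 (median 173). Its log2 fold change was 2.05 ± 0.04 (adjusted p 1.58e-24), and no library of one type reached the other. Cd40lg, which encodes the CD40 ligand of helper cells, ran from 109 to 127 CPM in Th1 (median 114) and from 38.2 to 43.9 CPM in CD8 (median 40.0), a log2 fold change of 1.52 ± 0.05 (adjusted p 3.83e-20).

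The coreceptor contrast was thus uneven. The mean Cd4 level in CD8 libraries was 24.1% of that in Th1 and the Cd40lg level was 34.9%, while the Cd8a level in Th1 was 3.56% of that in CD8 and the Cd8b1 level was 9.16%. In these bulk libraries, fewer cells of a type and less RNA per cell cannot be told apart. Scaled over all 24 libraries, Cd4 stood at 754 ± 21.3 CPM in Th1, 629 ± 56.0 in Treg, 458 ± 29.0 in Th17 and 181 ± 11.9 in CD8 (mean ± SD, n = 6 each). In the deposited table Cd4 (ENSMUSG00000023274), Cd8a (ENSMUSG00000053977) and Cd8b1 (ENSMUSG00000053044) lie on chromosome 6, Gzmb (ENSMUSG00000015437) on chromosome 14 and Cd40lg (ENSMUSG00000031132) on chromosome X. The build of its coordinates is not given in the sources used here.

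All 4 tested genes of the CD4 lineage list were higher in Th1 and all 5 of the CD8 lineage list were higher in CD8. Zbtb7b, the gene of ThPOK, averaged 154 ± 7.25 CPM in Th1 and 84.1 ± 4.82 in CD8 (log2 0.87 ± 0.04, adjusted p 7.1e-16). Gata3, needed for CD4 lineage commitment, differed less, at 0.48 ± 0.08 (adjusted p 4.22e-05). Runx3, the factor that silences Cd4 in the CD8 lineage, was higher in CD8, at 229 ± 22.1 against 167 ± 11.8 CPM (log2 -0.45 ± 0.05, adjusted p 7.15e-06). Crtam, an adhesion receptor of activated cytotoxic cells that is also in the killer receptor list below, differed by -2.42 ± 0.05. Itgae, the CD103 integrin chain, differed by -1.64 ± 0.17 and was low in both. Scaled over all 24 libraries, Itgae averaged 2.38 CPM in Th1 and 7.43 in CD8, against 58.55 in Th17 and 487 in Treg.

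**Figure D2:**
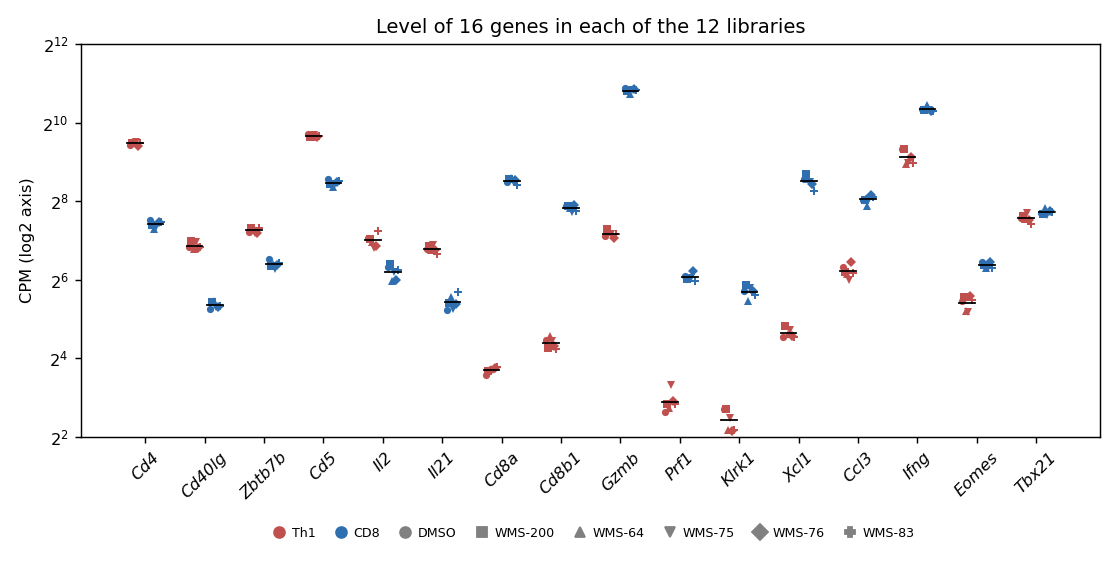
CPM of 16 genes on a log2 axis in each of the 12 libraries, Th1 in red and CD8 in blue, with one marker shape per treatment and a black bar at the mean of 6. Cd4 to Il21 sit higher in Th1 and Cd8a to Eomes higher in CD8 without overlap, whereas the Tbx21 libraries of the cell types overlap.

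The cytotoxic granule genes were mostly higher in CD8. Gzmb, granzyme B, ran from 132 to 156 CPM in Th1 (median 144) and from 1684 to 1884 CPM in CD8 (median 1814). Every CD8 library was above every Th1 library, and the log2 fold change was -3.65 ± 0.04 (adjusted p 2.4e-30). Prf1, the pore-forming perforin, ran from 6.21 to 10.1 CPM in Th1 (median 7.18) and from 62.4 to 74.4 CPM in CD8 (median 66.2), a log2 fold change of -3.17 ± 0.08 (adjusted p 5.95e-22). Neither gene overlapped between the groups, and in Th1 the level of Prf1 was low while Gzmb was at over 100 CPM in every library. Per kilobase of gene length, Gzmb had the highest level in CD8 among the named genes at least 2-fold higher there, 1255 CPM per kb, followed by Ifng with 996.

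Of 19 tested members of the granzyme and granule list, 11 were higher in CD8, 2 were higher in Th1 and 6 were not called, with a median log2 fold change of -0.83. Ctsw, cathepsin W, differed by -2.32 ± 0.07, and Gzmc by -1.94 ± 0.23. Neither was particular to CD8 in the series. Scaled over all 24 libraries, Ctsw averaged 76.3 CPM in CD8, 94.7 in Th17 and 331.5 in Treg. Gzmc averaged 18.7 CPM in CD8, 36.8 in Th17 and 0.667 in Treg. Nkg7, a granule membrane protein, was high in both, at 189 ± 11.3 CPM in Th1 and 396 ± 24.9 in CD8 (log2 -1.06 ± 0.04, adjusted p 3.99e-19). Granzyme A did not share this pattern. Gzma averaged 0.758 ± 0.53 CPM in Th1 and 0.799 ± 0.472 in CD8, and did not pass the test (adjusted p 0.817). The granzyme genes of chromosome 14 have near-identical copies, and reads can be split between them, so the values of Gzmc are uncertain. Gzma was named for its role, outside the rule for named genes, after its values were seen.

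Receptors first described on natural killer cells were called in one direction. Of 27 members of the killer receptor list, 14 passed the count filter, which a gene could pass through the libraries of 1 cell type alone. Among these 14, 12 were higher in CD8, each at least 2-fold, and 2 were not called, with a median log2 fold change of -2.41. A member that passed through CD8 alone could hardly be called otherwise, so the count describes these 14 only. Klrk1, which encodes the activating receptor NKG2D, ran from 4.48 to 6.54 CPM in Th1 (median 5.08) and from 43.9 to 57.9 CPM in CD8 (median 52.5). The groups did not overlap, and the log2 fold change was -3.28 ± 0.08 (adjusted p 1e-22). Klrd1, the CD94 chain that pairs with NKG2 receptors, differed by -3.90 ± 0.16, and Klri2 by -3.45 ± 0.22 (0.696 against 7.67 CPM). Cd160, a receptor for the ligand HVEM, differed by -2.39 ± 0.15. The Klra and Klrc members have near-identical copies, and their counts are uncertain. Hcst, the DAP10 adaptor through which NKG2D signals, was among the 2 not called, at 9.19 ± 1.4 CPM in Th1 and 9.04 ± 0.889 in CD8 (log2 0.015 ± 0.11, adjusted p 0.943).

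Of 12 tested chemokines, 7 were higher in CD8, 2 were higher in Th1 and 3 were not called (median log2 fold change -0.81). Xcl1, lymphotactin, which attracts cross-presenting dendritic cells, ran from 23.3 to 28.2 CPM in Th1 (median 24.2) and from 307 to 413 CPM in CD8 (median 366). Its groups lay widely apart, with a log2 fold change of -3.86 ± 0.05 (adjusted p 7.22e-31). The inflammatory chemokine genes Ccl3, Ccl4 and Ccl5 differed by -1.82 ± 0.04, -1.39 ± 0.05 and -1.56 ± 0.10, and Ccl9 differed by -2.32 ± 0.07. Ccl22, a ligand of the receptor CCR4, went the other way, at 34.9 ± 7.94 CPM in Th1 and 12.5 ± 5.38 in CD8 (log2 1.54 ± 0.21, adjusted p 0.00228).

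Among cytokines 5 of 19 tested members were higher in Th1, 2 were higher in CD8 and 12 were not called (median log2 fold change -0.12). Ifng, the defining cytokine of type 1 responses, was abundant in both but ran from 494 to 642 CPM in Th1 (median 531) and from 1246 to 1384 CPM in CD8 (median 1278). The groups did not overlap, and the log2 fold change was -1.22 ± 0.06 (adjusted p 8.58e-09). Il21, a cytokine of CD4 helper cells that acts on B cells, ran from 100.3 to 118 CPM in Th1 (median 109) and from 37.6 to 52.0 CPM in CD8 (median 42.2), a log2 fold change of 1.36 ± 0.08 (adjusted p 1.21e-08). Il2, the T cell growth factor, was present in both, at 128 ± 14.1 CPM in Th1 and 73.6 ± 8.82 in CD8 (log2 0.80 ± 0.05, adjusted p 2.24e-12). Ebi3, a subunit shared by IL-27 and IL-35, differed by 1.24 ± 0.16 at a low level. Il22 differed by 1.61 ± 0.23, with the Th1 library with DMSO at 10.7 CPM and the other 5 Th1 libraries between 2.88 and 4.18.

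Ligands of the tumour necrosis factor family were divided, with 5 of 12 higher in Th1, 5 higher in CD8 and 2 not called. Beside Cd40lg, Tnfsf11, which encodes RANKL, was higher in Th1 (log2 0.80 ± 0.05, adjusted p 5.16e-14). Tnf and Tnfsf10, the gene of the death ligand TRAIL, were higher in CD8, by -0.85 ± 0.05 and -1.08 ± 0.06. Chemokine receptors were divided as well, with 5 of 13 higher in Th1 and 6 higher in CD8. The CCL22 receptor Ccr4 and the related Ccr8 were higher in Th1 (log2 0.96 ± 0.07 and 1.35 ± 0.08). Cxcr6 and Ccr2, which guide effector cells into inflamed tissue, were higher in CD8 (log2 -2.04 ± 0.08 and -1.47 ± 0.11).

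Of 48 transcription factors of T cells tested, 13 were higher in Th1, 18 were higher in CD8 and 17 were not called, with a median of -0.032, and 3 differed at least 2-fold. Tbx21 ran from 171 to 206 CPM in Th1 (median 190) and from 201 to 227 CPM in CD8 (median 210). The libraries overlapped, and the difference was small although it passed the test (log2 -0.16 ± 0.04, adjusted p 0.00428). It did not pass when all 24 libraries were fitted (adjusted p 0.123). Tbx21 was named for its role, outside the rule for named genes. Eomes, its relative, averaged 42.7 ± 5.02 CPM in Th1 and 82.5 ± 4.5 in CD8 without overlap (log2 -0.95 ± 0.05, adjusted p 1.54e-14).

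The Runx family was divided. Runx1 ran from 50.8 to 58.5 CPM in Th1 (median 57.2) and from 21.2 to 26.1 CPM in CD8 (median 24.5), a log2 fold change of 1.22 ± 0.06 (adjusted p 3.16e-16). Runx2 went the other way (log2 -0.95 ± 0.06), as did Runx3. Zbtb32, a repressor induced on activation, showed the widest difference on the CD8 side of the list, at 62.6 ± 9.53 against 206 ± 7.11 CPM (log2 -1.73 ± 0.07, adjusted p 5.51e-09). Batf3 differed by -0.92 ± 0.06. Id3, an inhibitor of E proteins, and Hlx, a partner of T-bet, were higher in Th1 by 0.93 ± 0.06 and 1.27 ± 0.18. Tcf7, the gene of the memory factor TCF1, did not pass the test, at 506 ± 21.4 CPM in Th1 and 499 ± 41.6 in CD8 (log2 0.025 ± 0.05, adjusted p 0.741).

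Outside that list, among genes that the deposited table assigns to a transcription factor family, Otx1, Etv4 and Twist1 were higher in Th1 by 2.23 ± 0.15, 1.95 ± 0.18 and 1.32 ± 0.14. Twist1 limits inflammatory cytokine production in Th1 cells. Sox5 was higher in CD8 (log2 -1.02 ± 0.10). These are genes of low level, and the highest of the 4 means was 20.8 CPM, for Sox5 in CD8.

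**Figure D3:**
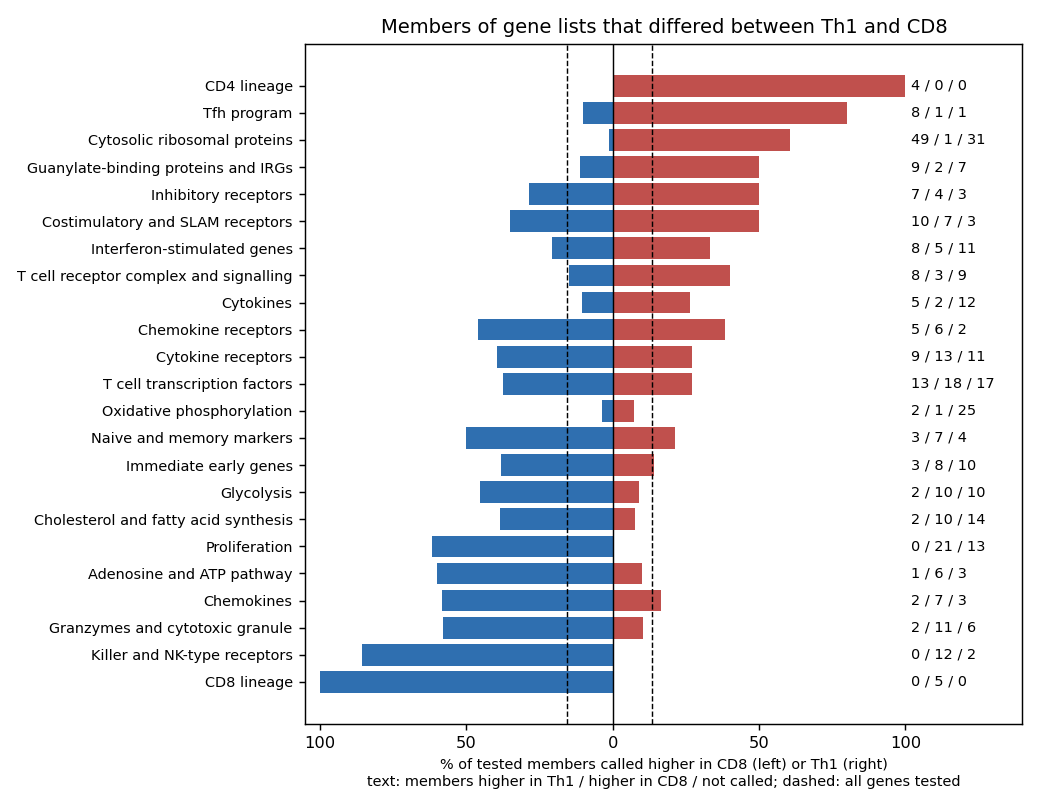
For 23 gene lists, the bars give the percentage of tested members called higher in CD8 (blue, left) and in Th1 (red, right), with the counts at the right edge. The dashed lines mark the shares over all genes tested, 15.7% and 13.6%, and the killer receptor list reaches 12 of 14 on the CD8 side while the ribosomal protein list reaches 49 of 81 on the Th1 side.

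Cytokine receptors had 9 of 33 members higher in Th1, 13 higher in CD8 and 11 not called (median log2 fold change -0.084). Il18r1 and Il18rap, both chains of the IL-18 receptor, were higher in CD8 by similar amounts (log2 -1.16 ± 0.05 and -1.11 ± 0.05). Il1rl1, the IL-33 receptor, and Il7r were also higher in CD8 (log2 -1.34 ± 0.09 and -0.89 ± 0.05). Il2ra, the activation-induced CD25 chain, was abundant in both, at 1192 ± 28.6 CPM in Th1 and 1784 ± 72.1 in CD8 (log2 -0.58 ± 0.03, adjusted p 8.86e-14). Il6ra, among the 9 higher in Th1, was at 31.4 ± 4.52 CPM in Th1 and 13.2 ± 1.13 in CD8 (log2 1.24 ± 0.08, adjusted p 1.65e-13).

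Inhibitory receptors had 7 of 14 members higher in Th1 and 4 higher in CD8. Cd5, which dampens T cell receptor signals, ran from 795 to 836 CPM in Th1 (median 802) and from 328 to 380 CPM in CD8 (median 354). Its libraries were tightly grouped and far apart (log2 1.19 ± 0.04, adjusted p 8.64e-21), and its relative Cd6 followed with 0.67 ± 0.03. Cd200 and Btla were higher in Th1 by 0.99 ± 0.03 and 0.72 ± 0.04. Tigit and Havcr2, the latter encoding TIM-3, were higher in CD8 (log2 -0.99 ± 0.07 and -1.09 ± 0.16). Lag3 did not pass the test, at 241 ± 17.3 against 232 ± 10.9 CPM (adjusted p 0.429).

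Costimulatory and SLAM receptors had 10 of 20 members higher in Th1 and 7 higher in CD8. Slamf6, Cd2 and Tnfrsf4 (OX40) were higher in Th1 by 1.03 ± 0.06, 0.95 ± 0.08 and 0.79 ± 0.04. Tnfrsf9 (4-1BB), which sustains CD8 responses, ran from 228 to 274 CPM in Th1 (median 268) and from 559 to 630 CPM in CD8 (median 585), with no overlap (log2 -1.16 ± 0.04, adjusted p 4.16e-20). Tnfrsf8 (CD30) and Cd27 were also higher in CD8, by -1.23 ± 0.07 and -0.83 ± 0.05. In the list of receptor signalling genes, 8 of 20 were higher in Th1 and 3 in CD8. The 3 included Themis, a regulator of T cell receptor signals in development (log2 -0.97 ± 0.04), and the kinase gene Txk (log2 -0.85 ± 0.07).

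Genes known from follicular helper T cells leaned to Th1, with 8 of 10 tested members higher there, 1 higher in CD8 and 1 not called (median 0.42). The list shares Il21, Slamf6 and Btla with the lists above, and Sh2d1a, the SLAM adaptor SAP, differed by 0.84 ± 0.07. Bcl6, the defining factor of follicular helper cells, was the member that was higher in CD8, at 15.7 ± 1.88 CPM in Th1 and 20.7 ± 1.64 in CD8 (log2 -0.41 ± 0.09, adjusted p 0.000452). The Treg list was even, with 7 of 19 members higher in each direction. Izumo1r, the folate receptor 4 of CD4 cells, and Gpr83 were higher in Th1 by 1.66 ± 0.05 and 2.02 ± 0.18.

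The defining factor of Treg cells was low in both. Foxp3 averaged 6.79 ± 1.81 CPM in Th1 and 3.52 ± 1.22 in CD8 (log2 0.97 ± 0.18, adjusted p 8.37e-05), and scaled over all 24 libraries its mean in Treg was 282 CPM. The Th17 list had 6 of 16 members higher in Th1, 2 higher in CD8 and 8 not called. Over all genes tested the shares were 13.6% higher in Th1 and 15.7% higher in CD8.

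Interferon-stimulated genes did not move as a block, with 8 of 24 higher in Th1, 5 higher in CD8 and 11 not called (median 0.12). Ifih1, the cytosolic RNA sensor MDA5, ran from 54.3 to 67.5 CPM in Th1 (median 61.5) and from 16.3 to 21.6 CPM in CD8 (median 18.4), with no overlap (log2 1.70 ± 0.07, adjusted p 3.95e-18). The antiviral Ifitm3 and Ifitm2, close copies between which reads can be split, differed by 1.23 ± 0.07 and 1.03 ± 0.07. Mx1, an antiviral GTPase, went the other way at a low level, with 1.74 ± 0.608 CPM in Th1 and 9.54 ± 1.19 in CD8 (log2 -2.47 ± 0.18). Of 18 interferon-induced GTPases, 9 were higher in Th1, 2 were higher in CD8 and 7 were not called. Gbp10 and Iigp1 were among the 9 (log2 1.15 ± 0.10 and 0.89 ± 0.07), and Gbp7 was 1 of the 2 (log2 -0.62 ± 0.07).

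Adhesion and memory genes held a closely related pair with opposite calls. Ly6c1 was higher in Th1 (7.8 ± 0.808 against 2.85 ± 0.872 CPM, log2 1.47 ± 0.17), and Ly6c2 was higher in CD8 (5.46 ± 1.08 against 26.1 ± 2.27 CPM, log2 -2.27 ± 0.10). Both genes are near-identical copies, and the count of each is uncertain where reads match both. Selp, the gene of P-selectin, was higher in CD8 (log2 -1.12 ± 0.08). Among the nonclassical class I genes, H2-Q7, which also has close copies, was higher in CD8 (log2 -1.09 ± 0.08).

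Ribosomal protein genes were slightly higher in Th1, with 49 of 81 tested members called higher there, 1 higher in CD8 and 31 not called, and a median log2 fold change of 0.15. Rplp0 averaged 5060 ± 402 CPM in Th1 and 3407 ± 178 in CD8 (log2 0.57 ± 0.03, adjusted p 1.66e-13), and Rps7 differed by 0.39 ± 0.04. The exception was Rps27l, a p53-induced relative of Rps27 (log2 -0.23 ± 0.04), a call lost with all 24 libraries fitted (adjusted p 0.0512). Together these genes took 11.6% ± 0.503 of counts in Th1 and 10.2% ± 0.33 in CD8 (SD, n = 6), higher in Th1 in 6 of 6 pairs (exact two-sided sign-flip test over pairs, p = 0.0312, the smallest it allows, adjusted over 3 shares 0.0469). The 100 most abundant genes took 21.9% ± 0.382 and 20.6% ± 0.46, also higher in 6 of 6 pairs (exact p = 0.0312, adjusted 0.0469). Abundant ribosomal protein genes such as Rplp0 count in both shares, so these are not separate results. Mitochondrially encoded genes took 0.425% ± 0.109 in Th1 and 0.502% ± 0.139 in CD8 (exact p = 0.406).

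Cell cycle genes leaned slightly to CD8, with 21 of 34 higher there and the other 13 not called, and a median of -0.15. Rrm2, a subunit of ribonucleotide reductase, differed by -0.33 ± 0.04 (adjusted p 7.49e-08), and this call was lost with all 24 libraries fitted (adjusted p 0.209). Glycolysis genes had 10 of 22 members higher in CD8, 2 higher in Th1 and 10 not called. The glucose transporter gene Slc2a3 and the hexokinase gene Hk2 differed by -0.56 ± 0.04 and -0.35 ± 0.04. The abundant Ldha and Pkm did not pass the test (adjusted p 0.237 and 0.104).

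Cholesterol and fatty acid genes had 10 of 26 members higher in CD8 and 2 in Th1, and Scd2, a fatty acid desaturase, differed by -0.67 ± 0.06. Of the integrated stress genes 8 of 25 were higher in CD8 and 3 in Th1. The cystine transporter gene Slc7a11 differed by -0.90 ± 0.24 at under 3 CPM (adjusted p 0.00466), a call lost with all 24 libraries fitted (adjusted p 0.0951). Of 28 oxidative phosphorylation genes, 2 were higher in Th1, 1 was higher in CD8 and 25 were not called.

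Immediate early genes had 8 of 21 members higher in CD8, 3 higher in Th1 and 10 not called. The Th1 count is near the share over all genes tested, 13.6%, and the CD8 share over all genes was 15.7%. Fos and Jun, which form the AP-1 factor, were higher in CD8 by -1.11 ± 0.12 and -0.63 ± 0.05, while Junb did not pass the test (log2 0.020 ± 0.04, adjusted p 0.773). Ier3 and the nuclear receptor gene Nr4a2 were higher in CD8 (log2 -1.49 ± 0.09 and -0.77 ± 0.05). The feedback inhibitors were split, with 8 of 23 higher in Th1 and 6 in CD8. Socs2, an inhibitor of cytokine signalling, was higher in Th1 (log2 1.05 ± 0.08), and Spry2, an inhibitor of receptor kinase signalling, was higher in CD8 (log2 -1.25 ± 0.14). Of 10 adenosine pathway genes 6 were higher in CD8 and 1 in Th1. They included Nt5e, which encodes the ectoenzyme CD73 (log2 -0.91 ± 0.09), and Dpp4, which encodes the adenosine deaminase binding protein CD26 (log2 -0.88 ± 0.06).

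Some of the widest differences lay outside the gene lists. Dnah7a, an axonemal dynein gene, averaged 28.6 ± 4.3 CPM in Th1 and 5.00 ± 0.615 in CD8. The groups did not overlap, and the log2 fold change was 2.51 ± 0.10 (adjusted p 5.1e-18). Frrs1l showed the widest difference toward Th1 among the genes named by the rule, at 6.63 ± 0.966 against 0.974 ± 0.281 CPM (log2 2.77 ± 0.20). The adhesion gene Cadm1, the galectin gene Lgals7 and the sialyltransferase gene St8sia6 were higher in Th1 by 2.31 ± 0.23, 2.31 ± 0.15 and 2.11 ± 0.11. Itm2a was the abundant one, at 228 ± 10.2 CPM in Th1 and 84.5 ± 8.94 in CD8 (log2 1.44 ± 0.05). On the CD8 side stood the adhesion receptor gene Adgrg5 (log2 -3.54 ± 0.15), the glutathione transferase gene Gstt1 (log2 -3.07 ± 0.16) and the imprinted long noncoding RNA Rian (log2 -2.67 ± 0.17). Wider still was Mid1-ps1, a pseudogene that the deposited table places on chromosome Y. It ran from 0.324 to 1.79 CPM in Th1 (median 0.816) and from 16.5 to 39.3 CPM in CD8 (median 22.3), with no overlap (log2 -4.56 ± 0.37, adjusted p 0.000216). Reads from its parent gene could be assigned to it. Mid1-ps1 was not particular to CD8. Scaled over all 24 libraries, it ran from 1.27 to 31.9 CPM in Treg and from 0.434 to 0.981 CPM in Th17. Of 4 Y-linked protein-coding genes that were listed and tested, Eif2s3y was higher in CD8 (log2 -0.25 ± 0.05) and 3 were not called. Here too, the WT number cannot be told apart from the cell type.

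Of 54 T cell receptor V segments tested, 9 were higher in Th1 and 7 higher in CD8, shares near those of all genes tested (13.6% and 15.7%). Trbv12-1 and Trbv29 were higher in CD8 (log2 -1.91 ± 0.21 and -1.41 ± 0.17), and Trbv2 was higher in Th1 (log2 0.76 ± 0.09). V segments resemble each other, so their counts are uncertain. Markers of other cells were summed as a check of the cultures. The 11 NK and gamma delta markers summed to 48.5 to 65.2 CPM in Th1 and 96.1 to 106 in CD8, and Eomes alone made up most of this sum. Among the defining members, Ncr1 and Klrb1c had at most 54 counts over the 6 libraries of a cell type, while Trdc, the delta chain constant gene, averaged 3.65 CPM in Th1 and 7.52 in CD8 (log2 -1.07 ± 0.15). Of 7 tested members, Eomes, Trdc and Trgc1 (log2 -1.09) were higher in CD8 and 3 were not called. Itga2 was higher in Th1, at 7.10 against 4.03 CPM (log2 0.80).

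The 12 B cell markers summed to 56.4 to 66.0 CPM in Th1 and 79.8 to 86.7 in CD8. Of 8 tested, Cd79b (log2 -2.71 ± 0.26), Igkc (log2 -1.08 ± 0.30) and Ighm (log2 -0.55 ± 0.05) were higher in CD8, Ebf1 (log2 1.12 ± 0.19) was higher in Th1 and 4 were not called. The 19 myeloid and dendritic markers summed to 113 to 126 CPM in Th1 and 116 to 132 in CD8, of which Cst3 alone made up 102 and 99.1 CPM on average. Of these markers, Cd68 (log2 -0.74 ± 0.10) was higher in CD8 and H2-Aa (log2 0.96 ± 0.24) and Flt3 (log2 1.28 ± 0.38) were higher in Th1. Itgax was also called higher in CD8 (log2 -2.84 ± 0.54), at a mean of 0.126 CPM in Th1 and 0.922 in CD8. Its Th1 mean lay below the level of 3 counts in a library (0.139 to 0.178 CPM). Itgax passed the count filter through CD8 alone, so it could hardly be called otherwise, and the size of its difference is uncertain. The Flt3 call was lost with all 24 libraries fitted (adjusted p 0.0542) and without the WMS-83 pair (adjusted p 0.0629). S100a9 was at 0 in all 12 libraries. The 16 erythroid and stromal markers summed to 19.1 to 21.7 and 17.1 to 19.7 CPM, with Hba-a2 and Krt8 at 0. The part of these cells in the killer gene results was not tested.

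The opioid receptor that the compounds target was at the limit of detection in both, with 5 counts of Oprk1 over the 6 Th1 libraries and 2 over the 6 CD8 libraries, where 3 counts correspond to 0.139 to 0.178 CPM in 1 library. The endogenous opioid gene Penk, which encodes proenkephalin, was abundant. It ran from 729 to 929 CPM in Th1 (median 885) and from 502 to 571 CPM in CD8 (median 535). No library overlapped, and the log2 fold change was 0.69 ± 0.05 (adjusted p 7.21e-08).

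Most called genes had the same direction under each treatment. Of the 4139 called genes, 3354 (81.0%) had the same sign in all 6 pairs, and the rest did not. The genes were called from these same pairs, so this share is not a separate check of direction. Cd8a differed by -4.89 to -4.62 over the pairs, Gzmb by -3.79 to -3.51, Cd4 by 1.92 to 2.22 and Runx1 by 1.15 to 1.26. Wider ranges were seen for Zbtb32 (-1.99 to -1.39), Prf1 (-3.43 to -2.70) and Il21 (0.95 to 1.64). Each pair was also left out in turn, and the genes called and at least 2-fold in the other 5 pairs were looked up in it. In the DMSO pair 554 of 587 such genes (94.4%) had the same direction and 399 (68.0%) were again at least 2-fold. In the 5 agonist pairs 93.7% to 97.0% had the same direction and 65.0% to 67.5% were again at least 2-fold. A left-out pair has the same WT numbers as the other pairs, so it is no check beyond these cultures.

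**Figure D4:**
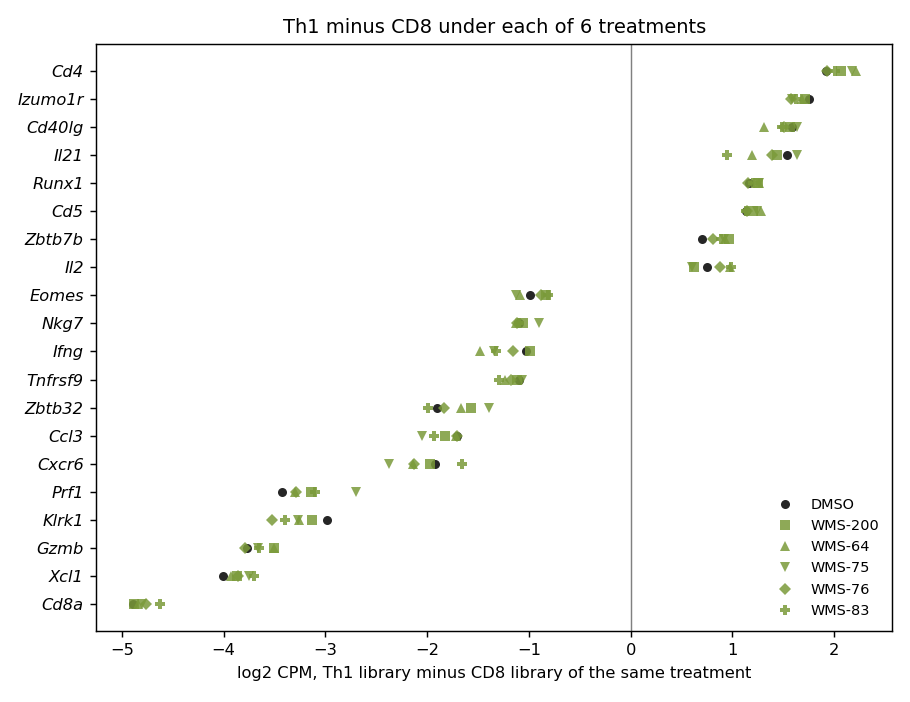
Difference in log2 CPM between the Th1 and the CD8 library of each treatment for 20 genes, with DMSO in black and the 5 agonists in green. For Cd8a the 6 points lie between -4.89 and -4.62 and for Cd4 between 1.92 and 2.22, and no gene shown has pairs on both sides of 0.

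Whether the cell type difference was another one under agonist than under DMSO was tested with the 5 agonist libraries of a cell type as replicates and a lone DMSO library that was assumed to vary like them. Of 14117 genes, 1 was called (0.00708%), with 462 genes at an unadjusted p under 0.05, where 706 would be expected by the threshold alone. It is the predicted gene Gm2606, which was at 16.4 CPM in the CD8 library with DMSO and between 0.998 and 2.19 CPM in the other 11 libraries (log2 3.70 ± 0.60, adjusted p 0.021). The call thus rests on 1 library, and Gm2606 was named after its values were seen. It was lost without the WMS-75 pair (adjusted p 0.069), whereas DESeq2 called 4 genes. The next gene with a gene name was Eno2, a glycolytic enolase, with 0.90 ± 0.19 and an adjusted p of 0.354. The single DMSO library per cell type leaves its own spread unmeasured.

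Promoter windows of 300 bases (250 before and 50 after the RefSeq start, first window listed per gene, GRCm38.p6) were searched on both strands. They were found by symbol for 9952 of the genes tested, for 167 of the 230 genes at least 2-fold higher in Th1 and for 271 of the 385 in CD8. The Runx letters occurred in 12.8% of all windows, 13.8% of the Th1 windows and 23.2% of the CD8 windows. The T-box letters occurred in 11%, 19.2% and 15.1%, and the AP-1 letters in 4.94%, 7.19% and 14.0%. The gamma-activated site, TTCNNNGAA, differed least, with 7.00%, 5.99% and 7.75%. Base composition differed as well, since GC made up 60.7% of all windows, 58.9% of the Th1 windows and 55.8% of the CD8 windows, and its part in these shares was not tested. The promoters of Gzmb, Prf1, Klrk1 and Xcl1 printed above are 4 of the 63 CD8 windows with a Runx match.

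**Figure D5:**
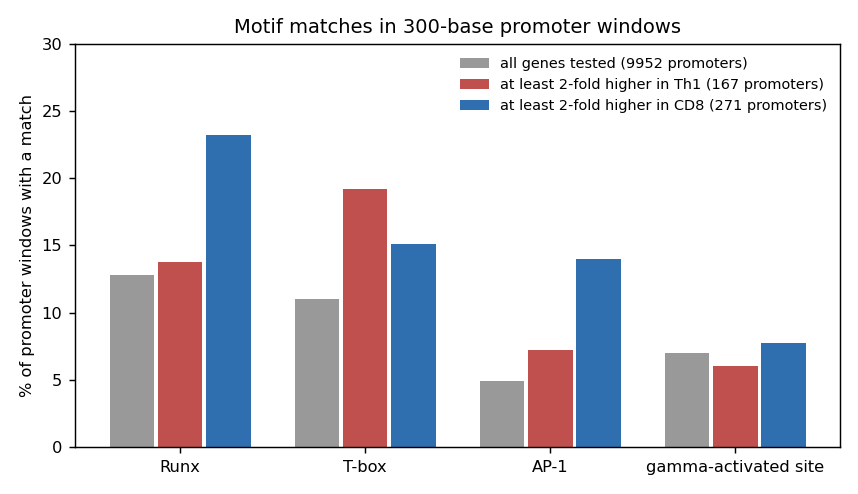
Percentage of 300-base promoter windows with a match to each of 4 motifs, for all genes tested (grey), genes at least 2-fold higher in Th1 (red) and genes at least 2-fold higher in CD8 (blue). The Runx bar is 23.2% for CD8 genes and 12.8% for all genes, and the T-box bar is highest for Th1 genes with 19.2%.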

How the data were processed

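Messenger RNA of 24 libraries was enriched by poly(A) and sequenced, per the labels' protocols, and the 12 Th1 and CD8 libraries were used here. The authors deposited raw counts of reads for each gene. Per the submitters' processing notes, featureCounts, HISAT2 and fastp were used. Their versions, the strand setting and the genome build were not given in the sources used here. Reads shared by similar or overlapping genes may therefore be assigned to either. All columns were matched to a labelled sample.

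Genes were kept by filterByExpr at a minimum count of 10 by cell type, keeping 14117 (11812 protein coding) of 56748 genes. edgeR 4.0.16 in R 4.3.3 fitted a robust quasi-likelihood model with cell type and compound after TMM scaling (5 residual degrees of freedom), and p was adjusted by Benjamini and Hochberg at 0.05. A model with cell type, agonist and their interaction tested the dependence on treatment (8 residual degrees of freedom). The biological coefficients of variation were 0.0819 and 0.0878. SD is over the 6 libraries of a cell type. Shares of counts were compared by an exact sign-flip test over pairs. Alternatives included DESeq2 1.42.0 and limma 3.58.1.

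The rule for named genes left out predicted and clone names and required a mean log2 CPM of at least 1, except for markers of other cells and opioid genes. It took the lineage markers, the 12 widest non-overlapping genes each way, up to 4 leading called members each way and 2 abundant uncalled members of each of 40 gene lists, and 6 each way by length-scaled level and among annotated transcription factors. It also took 4 long noncoding RNAs each way and the 5 leading interaction genes. A selection of these is printed, and 3 genes outside the rule (Tbx21, Gzma and Gm2606) are marked. Members and lists were chosen with earlier results of these data known. Scripts were tested on simulated data. Promoters are from RefSeq. Of 52073 gene identifiers shared with a GRCm38 annotation, 1472 have the same start and end in the deposited table, so its coordinates were not combined with that build. Results of some genes are not reported here.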

Additional observations from a re-analysis of the deposited data

Results flagged for a closer look

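A single library stood apart from the other 5 of its cell type in 24 of the 270 combinations of named gene and cell type examined (by the gap to the nearest library as a share of the range), where chance alone flags about 1 in 20. In Th1, the library with DMSO was high for Hlx (8.81 CPM, others 4.69 to 6.22), Spry2 (5.52, others 3.23 to 3.84) and Il22 (10.7, others 2.88 to 4.18) and low for Dpp4 (34.0, others 39.0 to 41.9). The Th1 library with WMS-83, whose title reads Th17, was high for Otx1 (13.7, others 8.50 to 9.73) and low for Tnfrsf9 (228, others 265 to 274), Selp (16.0, others 24.3 to 25.6), Penk (729, others 855 to 929) and Pkm (2210, others 2420 to 2540). As given in the opening, its Ifng and Penk levels were far above those of the Th17 libraries. Other Th1 libraries that stood apart were WMS-75 for Prf1 (10.1 CPM), WMS-64 for Runx1 (50.8), WMS-76 for Tcf7 (464) and Etv4 (8.01), and WMS-200 for Ly6c2 (7.62).

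In CD8, the library with DMSO was high for Ly6c1 (4.53 CPM), Cadm1 (2.69) and Rps7 (1840). WMS-64 was low for Runx2 (46.9, others 59.4 to 61.4) and high for Cd79b (6.79), WMS-200 was high for Ctsw (83.6), WMS-75 for Iigp1 (24.6) and Mid1-ps1 (39.3, others 16.5 to 24.5) and WMS-76 for St8sia6 (8.32), and WMS-83 was low for Il7r (133). The cell type difference of Gm2606 was 3.70 log2 units further toward Th1 under agonist than under DMSO by the interaction test.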

How the results depend on the processing

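The count of called genes was 2534 with all 24 libraries fitted, whose spread is shared with Th17 and Treg, and 3812 to 4157 under the other planned settings apart from leaving out pairs, which gave 3521 to 3857. The count at least 2-fold was 315 at a minimum count of 50, where 10938 genes were tested, and 583 to 615 with a pair left out. Without the replicate block by compound, 4048 genes were called and 603 were at least 2-fold. Deviations of libraries with the same compound correlated at -0.0998 to 0.114 and 1 of 6 was highest with its own compound. The interaction gave 4 genes with DESeq2, 8 with no low-count filter, 0 at a minimum count of 50, 0 with all 24 libraries and 0 to 4 with an agonist pair left out, with 0 when WMS-75 was left out. The difference in ribosomal protein share was 1.19 to 1.53 and that of the 100 most abundant genes 1.18 to 1.49 percentage points with a pair left out, where 5 pairs cannot pass the test (adjusted p 0.0938).

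Of 1884 values of named genes under alternatives, 1870 kept direction and call. Reversed values were all of uncalled genes: Hcst was -0.032 with length offsets, and with a pair left out Gzma ran from -0.40 to 0.15, Hcst from -0.055 to 0.087, Tcf7 from -0.022 to 0.074 and Junb from -0.029 to 0.056. Calls lost with all 24 libraries included those of Tbx21, Slc7a11, Rrm2, Rps27l and Flt3, and Pkm was called without WMS-83 (adjusted p 0.0429). Depth limits genes near 3 counts per library.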
